A study of Homo sapiens with 4 samples.

Results

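Transcripts of 10 genes that control the passage from G1 into S phase were followed in NCIH838 cells that lose MIB1. The genes were chosen by name, with earlier results of these data known. They were the D-type cyclins CCND1 and CCND3 with their kinases CDK4 and CDK6, and the E-type cyclins CCNE1 and CCNE2 with their kinase CDK2. The others were the inhibitor CDKN1B, the pocket protein RB1 and the transcription factor E2F1. Together they are 10 of the 58302 genes listed, and all 10 were among the 16181 genes with enough reads to be tested. None of them passed the test. CCND1, CCND3, CDK4, CDK6, CDKN1B and RB1 had overlapping groups at day 3. CCNE1, CCNE2, CDK2 and E2F1 stood 14.6% to 22.9% lower in the fit, with both dox libraries below both no dox libraries. The confidence interval of each of these lower values held 0. Such a separation was common, as 19.1% of all genes tested had groups apart in that direction and 19.5% in the other. The question was which of these regulators could stand upstream of the replication genes, whose transcripts were mostly lower with dox.

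NCIH838 is a line from a human non-small-cell lung cancer, here in its MIB1-iKO form, in which doxycycline (dox) switches on Cas9 beside a guide RNA against MIB1. The product of MIB1, Mind bomb 1, is an E3 ubiquitin ligase. Bulk RNA-seq was made at day 3 from 2 libraries without dox and from 2 libraries with 0.5 µg/mL dox, and both groups carry the same construct. According to the methods such lines were grown from single cells, and the labels name neither the clone nor the guide of these samples. No dox-treated cells without the MIB1 guide were analysed here, so an effect of dox or of Cas9 cannot be told apart from an effect of MIB1 loss.

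MIB1 itself had 598 and 588 reads in no dox replicates 1 and 2, and 90 and 59 reads in dox replicates 1 and 2. Its log2 fold change (dox over no dox) was -2.58 ± 0.23 (SE, n = 2 per group; limma, Benjamini-Hochberg adjusted p = 0.000375), so the libraries matched their labels. The libraries held 15943025 to 24398411 reads, fewer in both dox libraries, and any pair of them correlated at 0.985 to 0.989 across genes in normalised log2 CPM (read counts scaled to library size). Of the epithelial markers EPCAM stood at 9.70 to 10.9 RPKM (reads scaled by gene length and library size) and KRT8 at 17.0 to 23.0 RPKM, while KRT19 had 0 reads in every library. Of the markers of other cells PTPRC (leukocytes) had 0 reads, DCN (fibroblasts) had 0 to 3 reads and PECAM1 (endothelium) had 4 to 10 reads, whereas COL1A1, a collagen gene of mesenchymal cells, had 22 to 89 reads.

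In the textbook scheme D-type cyclins bind CDK4 or CDK6 in G1 and start the phosphorylation of the RB protein, which holds E2F factors inactive. Freed E2F1 and its relatives switch on the E-type cyclins, further E2F genes and the genes of DNA replication, and cyclin E with CDK2 completes the phosphorylation of RB. The proteins p27 (from CDKN1B) and the INK4 family restrain these kinases, and much of this control acts on proteins, which RNA-seq does not measure. In bulk RNA, fewer cells in a phase of the cycle and less RNA per cell cannot be told apart. By flow cytometry on a later day of dox, the paper reports arrest before S phase and a smaller share of S-phase cells. The share of cells in each phase was not measured in these libraries.

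E2F sites at the start of a gene are how this loop is usually drawn, so the RefSeq promoters on GRCh38.p14 (250 bases before the start to 50 after it) were searched for TTTCCCGC, TTTGGCGC, TTTCGCGC and TTTGCCGC on both strands. Of the 7 G1/S genes with an entry only E2F1 held a match, and it held 2. CCND1, CCNE2 and CDK2 had no entry. For CCND3, CDK4, CDKN1B and RB1 the RefSeq start used lay inside the gene as annotated by GENCODE, so other starts of these genes were not searched. The E2F1 stretch covers the 63 bases up to the start (chr20:33686386-33686448, minus strand, gene strand printed 5′ to 3′). It is set beside the 3 replication genes with the lowest log2 fold changes among those with a match before the start, and capitals mark a match, which may read on either strand. MCM3 held 2 matches, of which the upstream one is shown. POLE encodes the catalytic subunit of DNA polymerase epsilon (chr12:132687343-132687375, minus strand), GINS2 a subunit of the replicative helicase (chr16:85688963-85689000, minus strand) and MCM3 another of its subunits (chr6:52284894-52284931, minus strand).
E2F1: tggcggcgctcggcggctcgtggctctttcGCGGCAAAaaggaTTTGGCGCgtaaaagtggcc
POLE: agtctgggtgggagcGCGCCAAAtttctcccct
GINS2: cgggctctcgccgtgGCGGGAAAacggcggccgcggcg
MCM3: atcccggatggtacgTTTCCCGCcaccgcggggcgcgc

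In E2F1 the first match was TTTGCCGC on the reverse strand from base -33, and the second TTTGGCGC on the gene's own strand from base -20. Such letters stood in 908 of all 27305 promoters (3.33%) and in 578 of the 10761 promoters of tested genes (5.37%). Among the regulators and replication genes listed below they stood in 6 of 35 (17.1%) and in 20 of 44 (45.5%). A match is a run of letters and not a measured binding site, and a promoter without one may hold other forms of the site.

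The levels of the 10 genes spanned a wide range per length of gene model. CDK4 stood highest at 48.9 ± 1.52 RPKM (SD over the 4 libraries), above 88.6% of the genes tested. CDK2 followed with 19.5 ± 2.08 RPKM, CCND3 with 14.97 ± 0.305, CCND1 with 13.2 ± 0.823 and RB1 with 11.0 ± 0.659. Lower down came CCNE1 with 7.84 ± 1.04 RPKM, E2F1 with 5.45 ± 0.912, CCNE2 with 3.45 ± 0.679, CDKN1B with 2.64 ± 0.506 and CDK6 with 0.971 ± 0.181. Neighbours in this order did not overlap over the 4 libraries, except CCNE2 and CDKN1B. CDK4 thus exceeded its relative CDK6 by 39.4 to 59.1 times per library, while the D-type cyclins were nearly level, with CCND3 over CCND1 at 1.08 to 1.22. CCNE1 stood at 1.98 to 2.53 times CCNE2.

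**Figure D1:**
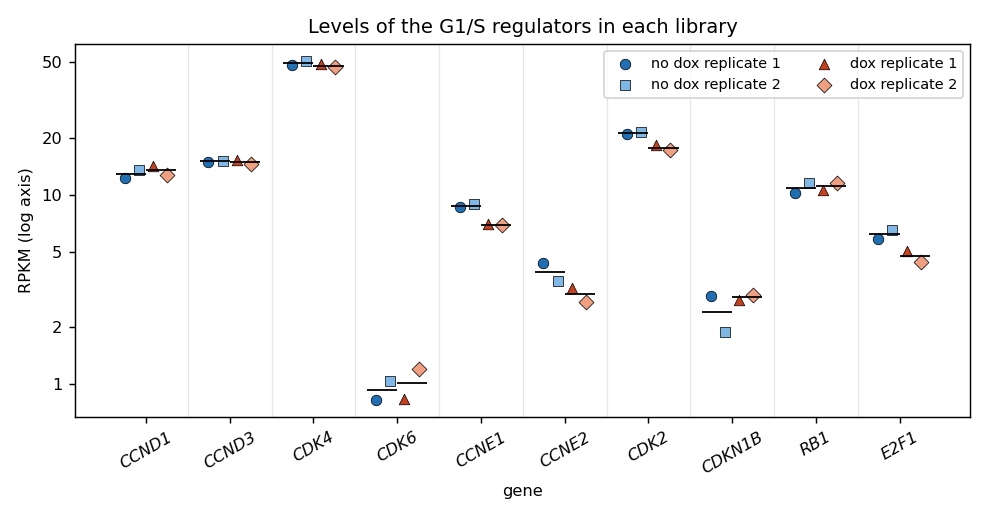
Levels of the 10 genes in the 4 libraries, in RPKM on a log axis, with 1 point per library coloured by group. CDK4 lies near 48.9 RPKM and CDK6 near 0.971 RPKM, and the dox points of CCNE1, CCNE2, CDK2 and E2F1 lie below their no dox points.

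The D-cyclin side of the switch showed no separation of the groups. CCND1 (cyclin D1, chr11:69641156-69654474, plus strand) stood at 12.3 and 13.6 RPKM without dox and at 14.1 and 12.8 RPKM with dox, with a log2 fold change of 0.09 ± 0.12 (SE). CCND3 (cyclin D3, chr6:41934934-42050357, minus strand) stood at 14.9 and 15.1 RPKM without dox and at 15.3 and 14.6 RPKM with dox, with a log2 fold change of 0.02 ± 0.12. In both cyclins the groups overlapped. The sign of the CCND3 value turned under other scalings, where it reached -0.01.

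CDK4 (chr12:57747727-57756013, minus strand), the more abundant of the kinases that D-type cyclins activate, stood at 48.6 and 50.9 RPKM without dox and at 48.9 and 47.3 RPKM with dox (log2 fold change -0.01 ± 0.11). CDK6 (chr7:92604921-92836573, minus strand), its close relative, stood at 0.824 and 1.03 RPKM without dox and at 0.828 and 1.20 RPKM with dox (log2 fold change 0.15 ± 0.21). Replicate 2 was the higher library of CDK6 in both groups, and without dox replicate 2 its log2 fold change was -0.13. Over these 4 genes the log2 fold changes ran from -0.01 to 0.15, with a median of 0.06 and a lowest adjusted p of 0.873 (limma, Benjamini-Hochberg). The 95% intervals reached from -0.29 to 0.59, so a 2-fold difference in either direction lay outside each of them. Exons of other genes lie opposite CCND1 (LTO1, 211 to 294 reads) and CDK4 (TSPAN31, 1868 to 3001 reads), and since no source says that strand was used in counting, reads of such pairs may be shared.

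The E-cyclin side lay lower with dox, by amounts below the threshold of the test. These genes were grouped after their values were seen. CCNE1 (cyclin E1, chr19:29811991-29824312, plus strand) stood at 8.58 and 8.88 RPKM without dox and at 7.01 and 6.88 RPKM with dox. Its groups were set apart by more than the spread within either, 8.73 ± 0.213 against 6.94 ± 0.0942 RPKM (SD, n = 2), and limma put the log2 fold change at -0.30 ± 0.16 (SE; adjusted p = 0.596). CCNE2 (cyclin E2, chr8:94879770-94896678, minus strand), the less abundant E-type cyclin, stood at 4.34 and 3.51 RPKM without dox and at 3.23 and 2.72 RPKM with dox. The log2 fold change of CCNE2 was -0.37 ± 0.19 (limma adjusted p = 0.586), and it was -0.20 without no dox replicate 1, its highest library, and -0.24 without dox replicate 2, its lowest. Exons of INTS8 (1022 to 1909 reads) lie opposite CCNE2.

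CDK2 (chr12:55966781-55972789, plus strand), the kinase that E-type cyclins activate, stood at 21.0 and 21.5 RPKM without dox and at 18.2 and 17.3 RPKM with dox. The group means were 21.3 ± 0.325 and 17.7 ± 0.693 RPKM (SD), and the log2 fold change was -0.23 ± 0.12 (SE, n = 2 per group; limma adjusted p = 0.611). Exons of PMEL lie opposite CDK2 but held only 5 to 27 reads. E2F1 (chr20:33675477-33686385, minus strand), the factor whose promoter is printed above, stood at 5.85 and 6.50 RPKM without dox and at 5.06 and 4.41 RPKM with dox. Its log2 fold change was -0.36 ± 0.17, with the lowest p of the 10 genes (limma adjusted p = 0.547) and a 95% interval that ended just past 0. As a percentage the fitted differences were -18.7 for CCNE1 (95% interval -35.5 to 2.49), -22.9 for CCNE2 (-41.9 to 2.41), -14.6 for CDK2 (-28.9 to 2.60) and -21.8 for E2F1 (-39.2 to 0.436). Each interval holds 0.

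The inhibitor CDKN1B (p27, chr12:12685498-12722369, plus strand), which binds cyclin E with CDK2, stood at 2.92 and 1.89 RPKM without dox and at 2.79 and 2.97 RPKM with dox. Both dox libraries and no dox replicate 1 were close together, and no dox replicate 2, with 110 reads, stood apart below them. The log2 fold change of 0.29 ± 0.23 (limma adjusted p = 0.748) was -0.006 without that library and 0.61 without no dox replicate 1. RB1 (chr13:48303744-48599436, plus strand), which encodes the pocket protein that D-type kinases inactivate, stood at 10.3 and 11.5 RPKM without dox and at 10.6 and 11.6 RPKM with dox. Replicate 2 was the higher in both groups, and the log2 fold change was 0.07 ± 0.13 (limma adjusted p = 0.917).

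**Figure D2:**
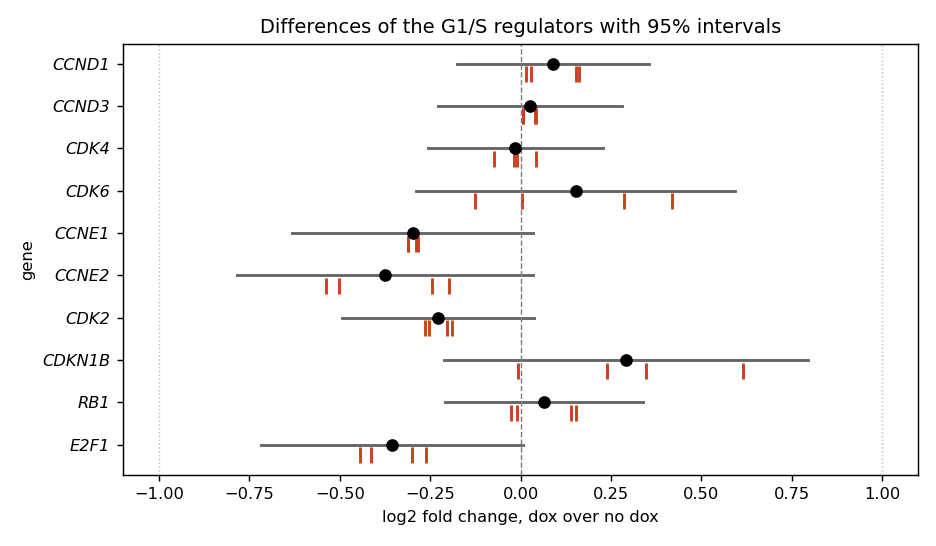
Log2 fold change (dox over no dox) of each of the 10 genes from limma (black point) with its 95% interval (grey bar); red ticks are fits with 1 library left out, and dotted lines mark 2-fold. The points run from -0.37 (CCNE2) to 0.29 (CDKN1B), and every interval lies between the dotted lines and crosses 0.

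Counted together, 5 of the 10 genes were lower and 5 higher with dox, with a median log2 fold change of 0.01 against a median of -0.0004 over all genes tested. A call needed a 2-fold difference and an adjusted p no higher than 0.05, which 6 of the 16181 genes (0.0371%) met and 0 of the 10 did in limma, edgeR or DESeq2. At an unadjusted p under 0.05 the limma count was 0 of 10, beside 4.59% of all genes lower and 4.68% higher. edgeR gave 2 genes at that level (CCNE2 and E2F1) and DESeq2 gave 0. In normalised log2 CPM the groups did not overlap, with dox lower, in 4 of the 10 genes (40%), whereas 19.1% of all genes tested had groups apart in that direction and 19.5% in the other, in which 0 of the 10 fell. All 10 of the 95% intervals lay within 2-fold, as did those of 12519 of the 16181 genes. With 2 libraries per group an exact permutation test of a single value cannot go below p = 0.333. The study describes the replicates as biological; neither it nor the labels say how they were separated, so the p-values measure the spread between these samples only.

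Ratios between the genes within a library do not depend on its depth. The summed RPKM of the E-type cyclins over that of the D-type cyclins was 0.475 and 0.433 without dox and 0.348 and 0.351 with dox. CDK2 over CDK4 was 0.433 and 0.422 without dox and 0.373 and 0.365 with dox. E2F1 over RB1 was 0.571 and 0.566 without dox and 0.478 and 0.381 with dox. In these 3 ratios both dox libraries were the lower ones, whereas the ratio of D-type cyclins to CDK4 with CDK6 was 0.551 and 0.552 without dox and 0.591 and 0.564 with dox. The ratios were chosen with the values known and carry no test.

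**Figure D3:**
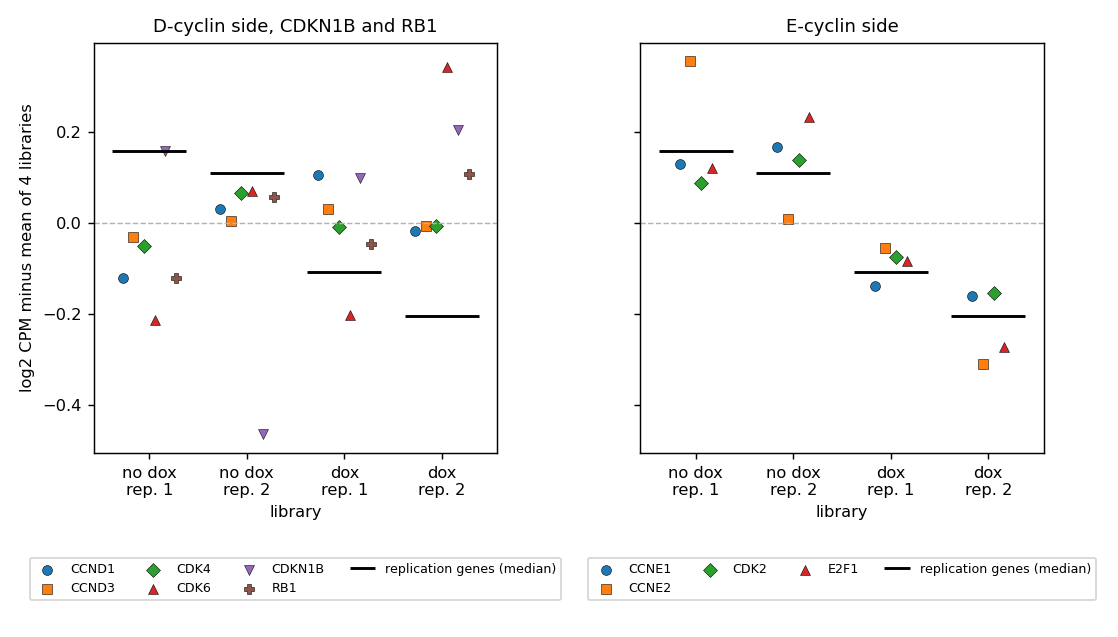
Each gene's normalised log2 CPM minus its mean over the 4 libraries, by library, with the median of the 51 replication genes as a black bar. On the right, points of CCNE1, CCNE2, CDK2 and E2F1 lie above 0 without dox and below 0 with dox. The bars do the same (0.16 and 0.11 against -0.11 and -0.20). On the left, the other 6 genes show no such split. The panels were sorted after the values were seen, so the contrast between them follows from the sorting. The replication list was also made with earlier results of these libraries known.

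Among the other regulators of the same step the picture was mixed. Of 41 such genes 37 were tested, 19 of them lower and 18 higher with dox, with a median log2 fold change of -0.03 and 0 called by limma (lowest adjusted p 0.315). At an unadjusted p under 0.05 limma gave 3 lower and 2 higher of the 37, beside 4.59% and 4.68% of all genes, so few that they are given as values only. Of the lower ones, E2F2 and MYBL2 are known targets of E2F. E2F2, an activating relative of E2F1, had 102 and 88 reads without dox. In the smaller dox libraries it had 41 and 44 reads (log2 fold change -0.73 ± 0.27, limma adjusted p = 0.414). FOXM1, a transcription factor of late cycle genes, stood at 7.30 and 7.27 RPKM without dox and at 4.48 and 6.23 RPKM with dox (-0.44 ± 0.16; limma adjusted p = 0.414). MYBL2, the partner of the MuvB complex in S phase, stood at 45.5 and 48.6 RPKM without dox and at 34.8 and 37.2 RPKM with dox (-0.36 ± 0.12; limma adjusted p = 0.355). The third activating E2F gene, E2F3, stood at -0.15, and E2F7 at -1.22 on only 2 to 15 reads. Both were picked out with their values in view. The remaining E2F genes tested had overlapping groups: E2F4 (-0.14), E2F5 (0.01), E2F6 (-0.18) and E2F8 (-0.11). The highest value of the list was DYRK1A at 0.66, on only 27 to 54 reads.

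The regulators higher at an unadjusted limma p under 0.05 were both INK4 inhibitors, which bind CDK4 and CDK6. CDKN2C (p18) stood at 27.3 and 24.9 RPKM without dox and at 37.2 and 30.5 RPKM with dox, and limma put the log2 fold change at 0.40 ± 0.12 (adjusted p = 0.315). CDKN2D (p19) had 373 and 329 reads without dox and 293 and 446 reads in the smaller dox libraries (0.52 ± 0.16; limma adjusted p = 0.350). Relative to library size both had dox libraries above the no dox ones, and neither passed the test. RBL2, the pocket protein p130 of resting cells, stood at 18.5 and 20.5 RPKM without dox and at 22.2 and 23.3 RPKM with dox (0.25 ± 0.12; limma adjusted p = 0.546). The remaining INK4 genes CDKN2A and CDKN2B, and the D-type cyclin gene CCND2, had 0 reads in all 4 libraries, which allows up to 3 reads in each. The other CIP/KIP inhibitors, CDKN1A at 0.16 and CDKN1C at 0.00 on the log2 scale, had overlapping groups like CDKN1B. At the protein level the paper reports more p21, the product of CDKN1A, after MIB1 knockout. For the CDKN1A transcript, the paper reports a stronger BMP response after knockout in a separate RNA-seq experiment with added BMP4. The paper also lists p18 among the proteins that were higher in knockout cells. Neither protein was measured in these libraries.

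The genes of DNA replication, the classical targets of E2F, gave a more uniform picture. Of 51 genes 50 were lower with dox and 1 was higher, with a median log2 fold change of -0.32, and limma called 0 of them (lowest adjusted p 0.126). At an unadjusted p under 0.05 limma gave 25 lower (49.0%, beside the 4.59% of all genes) and 0 higher, and 37 of the 51 (72.5%, beside 19.1% of all genes) had both dox libraries below both no dox libraries in normalised log2 CPM. This list was made with an earlier result on S-phase genes in these libraries known, and its direction is not independent support. The 25 included the helicase genes MCM2, MCM3, MCM4, MCM5, CDC45, GINS1 and GINS2. They also included ORC1, CDC6, GMNN and MCM10, which act in origin licensing, its inhibition (GMNN) or origin firing. The polymerase, clamp, ligase and fork genes among them were POLE, POLE2, POLA2, PRIM1, PCNA, RFC3, FEN1, LIG1 and TIPIN. The remaining genes were the nucleotide enzymes RRM2 and TK1 and the chromatin genes CHAF1A, CHAF1B and UHRF1.

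MCM3, a helicase subunit, stood at 20.5 and 21.9 RPKM without dox and at 13.3 and 13.3 RPKM with dox (log2 fold change -0.64 ± 0.12; limma adjusted p = 0.126). POLE had 297 and 283 reads without dox and 131 and 102 reads in the smaller dox libraries (-0.86 ± 0.21, limma adjusted p = 0.209). CHAF1A, a chaperone that loads histones behind the fork, had 320 and 293 reads without dox. In the smaller dox libraries it had 131 and 115 reads (-0.85 ± 0.20, limma adjusted p = 0.174). In each of these genes both dox libraries lay below both no dox ones; the dox libraries of MCM3 nearly coincided, while those of POLE (131 and 102 reads) and CHAF1A (2.57 and 1.90 RPKM) lay further apart. MCM10 stood at -0.65 ± 0.14 and GINS2 at -0.64 ± 0.13 on the log2 scale (limma adjusted p = 0.165 and 0.154). The highest values of the list were RPA2 at 0.03, RPA3 at -0.01 and RRM1 at -0.03, the first and second being subunits of the single-strand binding protein and RRM1 the large subunit of ribonucleotide reductase.

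**Figure D4:**
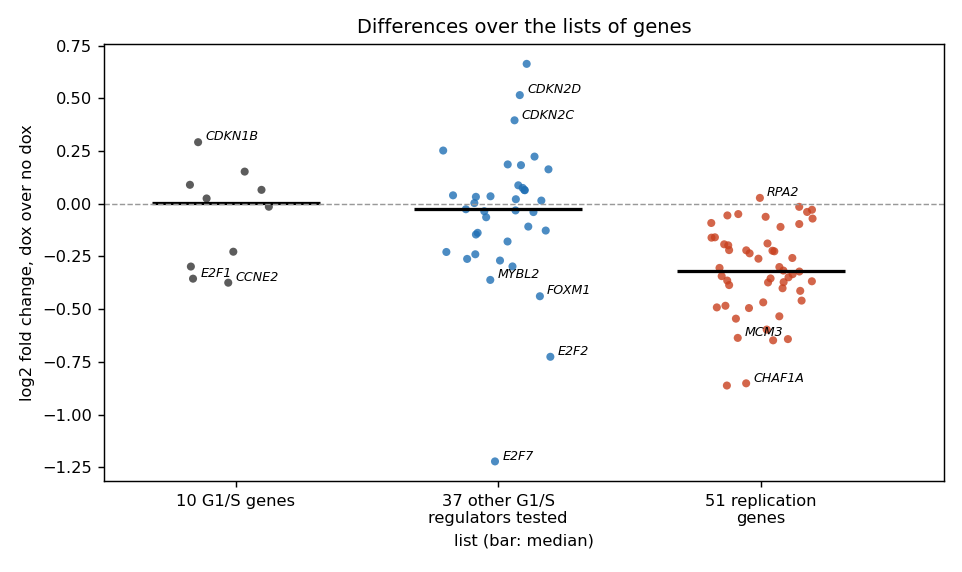
Log2 fold changes (dox over no dox) of the 10 G1/S genes, the 37 other regulators tested and the 51 replication genes, with 1 point per gene and a black bar at each median. The medians are 0.01, -0.03 and -0.32.

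By promoter, the 20 replication genes with an E2F match had a median log2 fold change of -0.36 and the 24 without one had -0.26, and all of both kinds were lower with dox. Over all tested genes with a promoter entry the median was -0.04 for the 578 with a match, of which 59.2% were lower, and -0.001 for the 10183 without, of which 50.2% were lower. The replication genes are part of both sets, so these values are not separate from that list. Of the 4 epithelial markers tested, the keratins were lower alongside: KRT8 stood at 22.1 and 23.0 RPKM without dox and at 17.9 and 17.0 RPKM with dox (limma adjusted p = 0.362). KRT18 was at -0.41 on the log2 scale, and EPCAM at 0.13 and CDH1 at 0.25 had dox libraries above the no dox ones; their part in the cyclin values was not tested. Levels of transcripts at 1 time point do not order the genes, and which of them stands upstream was not tested.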

How the data were processed

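Per the methods, ribosomal reads were removed, the 50-base reads aligned with GSNAP to GRCh38, and exonic reads counted by HTSeqGenie. The deposited counts are whole numbers per gene and library, not normalized. The deposited RPKM values are reads scaled by gene length and library size by the authors, with a further factor per library, and served for levels and ratios only. The methods name RefSeq while the identifiers are Ensembl ones; the library kit of these samples and the use of strand in counting are not given in the sources used here. Symbols (57532 of 58302 identifiers) and positions are from GENCODE 44 on GRCh38.

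Genes were kept by filterByExpr. Counts over library size were quantile normalized, weighted with voom and tested with lmFit and eBayes in limma 3.58.1 (R 4.3.3) without covariates, as in the study's methods. Benjamini-Hochberg adjustment covered all genes tested, and a call needed an adjusted p no higher than 0.05 with a log2 fold change of 1 or more in either direction. Limits from 0 counts cover counting error only. Alternatives were edgeR 4.0.16, DESeq2 1.42.0, other scalings and filters, log2(RPKM + 0.1) and log2(RPKM + 1), the replicate block and leaving out each library. The code was tested on simulated data.

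Named are MIB1, the 10 genes and, of both other lists, genes at an unadjusted p under 0.05 and, with a mean count of at least 50, the 3 highest and 3 lowest. E2F3 to E2F8 and DYRK1A were added with their values in view. CDKN1A, CDKN1C, CDKN2A, CDKN2B and CCND2 were also named outside this rule. The 10 genes and the lists were chosen with earlier results of these data known.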

Additional observations from a re-analysis of the deposited data

How the results depend on the processing

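None of the 10 genes was called under any of the 13 alternatives. The number at an unadjusted p under 0.05, 0 as reported, was 2 with edgeR, 2 with voom and TMM (both CCNE2 and E2F1), 2 without the filter (CCNE1 and E2F1), and 3 on log2(RPKM + 0.1) and 3 on log2(RPKM + 1) (CCNE1, CDK2 and E2F1). It was 0 with DESeq2, with library size only and with a mean count of at least 50. With the replicate block it was 4 (CCNE1, CCNE2, CDK2 and E2F1, lowest adjusted p 0.120 in limma), and 78 of all genes were then called instead of 6. Deviations of same-numbered libraries correlated at 0.134 and the labels give the numbers no meaning, so the numbers were not taken to pair the samples. Leaving out 1 library gave 0 to 1 genes, CDKN1B without no dox replicate 1 and CCNE2 without no dox replicate 2; the lone sample is then assumed to vary like the other group.

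The median over the 10 genes, 0.0053 on the log2 scale, was -0.0254 with edgeR, -0.0249 with voom and TMM, -0.0302 on log2(RPKM + 0.1), -0.0294 on log2(RPKM + 1) and between -0.0721 and 0.0175 with 1 library left out. The value of CCND3 turned to -0.0062 with edgeR, -0.0060 with voom and TMM, -0.011 on log2(RPKM + 0.1) and -0.011 on log2(RPKM + 1). With 1 library left out CDK4 ran from -0.0736 to 0.0434 and CDK6 from -0.127 to 0.418. CDKN1B ran from -0.0060 to 0.615 and RB1 from -0.0253 to 0.154. CCNE1 (-0.31 to -0.28), CCNE2 (-0.54 to -0.20), CDK2 (-0.27 to -0.19) and E2F1 (-0.45 to -0.26) kept their sign. Groups that do not overlap keep their sign when a library is left out, so this adds nothing to the separation itself. The cause of the shifts between settings was not tested. The median of the replication genes was between -0.349 and -0.261 with 1 library left out. Adjusted p over the other alternatives ran from 0.194 to 0.927 for CCNE1, 0.152 to 0.894 for CCNE2, 0.120 to 0.915 for CDK2 and 0.147 to 0.872 for E2F1.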

Other observations

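The 0 reads of CDKN2A and CDKN2B were not isolated on chromosome 9. Of the 22 protein-coding genes between FOCAD (chr9:20658309-20995955) and ELAVL2 (chr9:23690104-23826337), among them KLHL9, DMRTA1 and MTAP, an enzyme of methionine salvage, all 22 had 0 reads in all 4 libraries, over a span of 1.46 Mb. FOCAD had 344 to 618 reads and ELAVL2 had 11 to 27 reads. They mark the ends because they were the nearest protein-coding genes on each side with a read in every library. Each gene between them therefore had to lack reads in some library, though not in all 4. Of the 58302 genes listed, 23529 to 24223 had a read in a given library. Most of the 22 are type I interferon genes, which many cells do not transcribe at rest. The stretch was looked at after the zeros were seen, it is the same with and without dox, and the DNA was not measured.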
